A study of Sus scrofa with 4 samples.

Results

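The Frizzled receptors FZD1 to FZD10 were examined in sorted pig skin cells, taken as the rows of the count table that carry these 10 names. All 10 were among the 29837 named genes, and all 10 passed the filter on low counts that left 15980 genes for testing. Skin came from 2 juvenile pigs, 88R and 95R, in which H2B-GFP, a nuclear fluorescent protein, was knocked into exon 1 of 1 LGR5 allele, so that cells of both sorted populations carried the reporter. The herd was made by nuclear transfer from clonal edited fetal fibroblasts, and whether 88R and 95R were cloned or bred is not given in the sources used here. Hair and epidermis were separated from the dermis, and live cells were sorted by GFP into LGR5-high (GFP-hi) and LGR5-negative (GFP-neg) cells, with 1 poly(A) RNA library for each population and pig. The histone-bound GFP is thinned out as cells divide, so the gate reads past as well as present LGR5 expression, and no pig without the reporter was compared.

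Frizzled proteins are receptors that cross the membrane several times and bind WNT ligands through a cysteine-rich domain outside the cell. With the coreceptors LRP5 and LRP6 they recruit Dishevelled, which stabilises beta-catenin and lets it act with TCF/LEF factors on target genes. Without these coreceptors they also act in planar cell polarity, the alignment of cells within an epithelial sheet. LGR5 is tied to them directly: with its R-spondin ligands it blocks ZNRF3 and RNF43, ubiquitin ligases that remove Frizzled from the cell surface. By sequence the family falls into FZD1, FZD2 and FZD7, then FZD5 and FZD8, then FZD3 and FZD6, and last FZD4, FZD9 and FZD10. This grouping is textbook knowledge, and it was applied here after the values had been seen.

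The libraries held between 30696803 and 32463362 counts on named genes. A gene at 3 counts, taken as the floor, had between 0.0872 and 0.105 CPM, a unit of counts scaled to a common library size by TMM. LGR5 had 4551 and 6224 counts in LGR5-high (pigs 88R and 95R) and 36 and 109 in LGR5-negative. Of 7 keratinocyte markers in the table, KRT5, TP63, DSP and CDH1 were not called different, KRT1 and KRT10 were lower and EPCAM was higher in LGR5-high. Of 8 hair follicle stem cell markers 6 were higher in edgeR, DESeq2 and limma-voom, and 5 in the alternative test on log2 CPM described with the processing. None was lower in any of these, or at an unadjusted edgeR p-value under 0.05. LGR5, whose rise follows from the sort, is among the 6. The 2 markers not called in edgeR were KRT15 (log2 fold change 0.76, adjusted p = 0.187) and NFATC1 (0.19, adjusted p = 0.308). These counts stand beside the edgeR calls over all tested genes, 22.7% higher and 22.0% lower. Markers of other cells moved as well, and their values stand beside the receptors below. In these bulk libraries, fewer cells of a type and less RNA per cell cannot be told apart.

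Counts on the whole family were more frequent in both LGR5-high libraries. The 10 genes together had 44702 and 39474 counts in LGR5-high, and 8944 and 9768 counts in LGR5-negative, in pigs 88R and 95R. These were 0.141% (Wilson 95% interval 0.140 to 0.142) and 0.129% (0.127 to 0.130) of all named counts in LGR5-high, against 0.0288% (0.0283 to 0.0295) and 0.0301% (0.0295 to 0.0307) in LGR5-negative. The intervals cover counting error only. The summed level, as mean and SD of 2 pigs, was 1247 ± 74.5 CPM for LGR5-high cells against 318 ± 6.63 CPM for LGR5-negative cells, a ratio of 3.92. As log2 it was 2.05 for pig 88R and 1.89 for pig 95R. FZD7 carried much of this difference. Without FZD7, the other members had 525 ± 12.1 CPM and 255 ± 6.34 CPM (SD, n = 2 pigs), a ratio of 2.06. No test was made of the sum.

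The makeup of the family also differed between the populations. FZD7 gave 58.9% of the Frizzled counts in LGR5-high of pig 88R (Wilson 95% interval 58.5 to 59.4) and 56.7% in pig 95R (56.2 to 57.2). In LGR5-negative its share was 17.3% (16.5 to 18.1) and 22.5% (21.7 to 23.3). FZD7 thus stood first in both LGR5-high libraries, followed by FZD1 with 15.4 ± 1.31% and FZD8 with 9.22 ± 1.03% (SD, n = 2 pigs). LGR5-negative had no such leader. FZD10 stood first there with 25.6 ± 0.466%, then FZD7 with 19.9 ± 3.66%, FZD6 with 19.3 ± 0.404% and FZD4 with 15.0 ± 2.87%. The order of FZD7 and FZD6 in LGR5-negative turned between the pigs, with FZD6 ahead in 88R (19.6% against 17.3%) and FZD7 ahead in 95R (22.5% against 19.1%). The rarest members were FZD9 and FZD2, with 0.0607 ± 0.0288% and 0.754 ± 0.0376% in LGR5-high and 0.885 ± 0.0929% and 0.345 ± 0.0768% in LGR5-negative. A share also falls when other members rise. That of FZD6 was 5.59% in LGR5-high and 19.3% in LGR5-negative, while its mean level was 70.0 and 61.6 CPM. Shares of counts depend on transcript length, which was not used here, so they rank counts rather than RNA molecules. The comparison of 1 receptor between populations does not depend on its length as long as the same transcript is made.

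**Figure D1:**
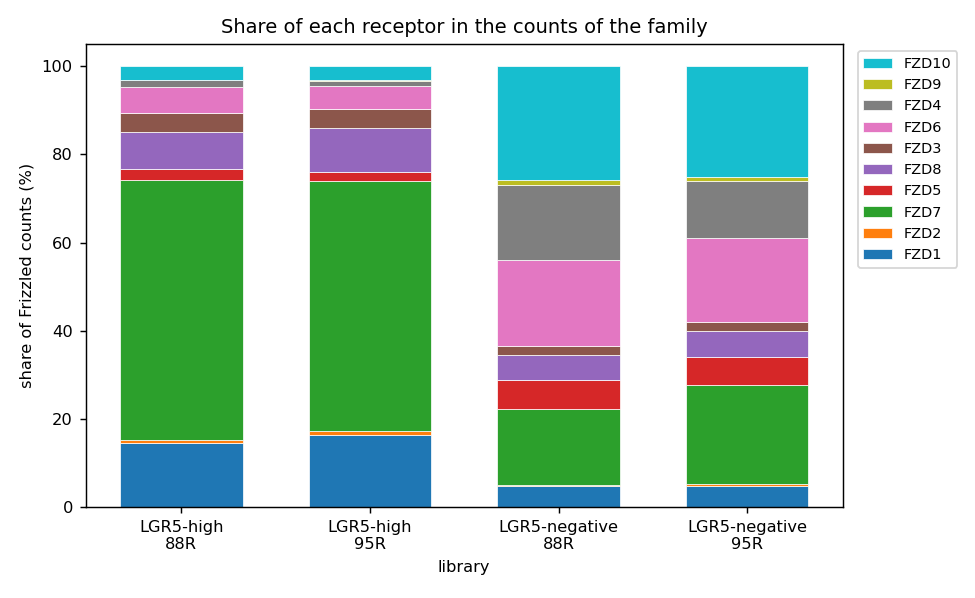
Each bar is 1 library, and its segments are the shares of the 10 receptors in the family's counts, in percent. FZD7 fills 58.9% and 56.7% of the LGR5-high bars, whereas FZD10, FZD6, FZD4 and FZD7 divide most of the LGR5-negative bars.

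Of the 10 members, 6 were higher and 3 lower in LGR5-high when p-values of edgeR (quasi-likelihood, adjusted by Benjamini-Hochberg over all tested genes) had to be under 0.05. Among all 15980 tested genes, 22.7% were called higher and 22.0% lower. The median log2 fold change was 1.55 over the 10 members and 0.02 over all tested genes. The normalized values of the populations did not overlap for 9 of the 10 members, which was also so for 76.6% of all tested genes. The rise was large for FZD1, FZD7, FZD3, FZD2 and FZD8, between 6.20 and 12.6 times, and small for FZD5. The fall of FZD4, FZD9 and FZD10 was between 2.09 and 3.76 times. FZD6 was the member that was not called.

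**Figure D2:**
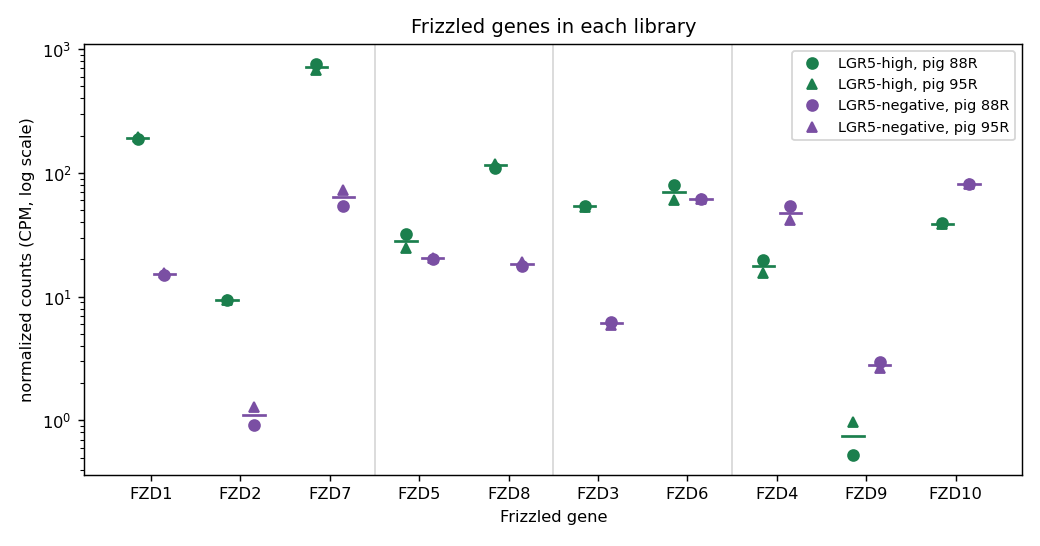
Points are CPM of each Frizzled gene on a log scale, circles for pig 88R and triangles for pig 95R, with LGR5-high in green and LGR5-negative in purple, and short lines are the means. Grey lines part the sequence groups. FZD1, FZD2, FZD7, FZD8 and FZD3 lie higher in both LGR5-high libraries, FZD4, FZD9 and FZD10 lie lower, and FZD6 overlaps.

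FZD1, FZD2 and FZD7 rose together. FZD7, which serves as a WNT receptor of LGR5-positive stem cells in the mouse intestine, had 766 and 678 CPM in LGR5-high and 54.3 and 72.6 CPM in LGR5-negative of pigs 88R and 95R. Both LGR5-high libraries stood far above both LGR5-negative libraries, and as a ratio the pigs differed more in LGR5-negative. The log2 fold change of FZD7 was 3.51 (standard error 0.167, adjusted p = 9.93e-05), an 11.4-fold difference with a 95% interval of 8.54 to 15.2, and pigs 88R and 95R gave 3.82 and 3.22. FZD1, a receptor of the beta-catenin pathway, had 189 and 196 CPM in LGR5-high and 15.0 and 15.6 CPM in LGR5-negative. Its values were close between pigs in each population. The log2 fold change of FZD1 was 3.65 (standard error 0.0856, adjusted p = 3.80e-05), or 12.6-fold with an interval of 10.9 to 14.6. FZD2, the third of this group, was scarce, with 325 and 308 counts (9.45 and 9.32 CPM) in LGR5-high and 26 and 39 counts (0.912 and 1.29 CPM) in LGR5-negative. Its LGR5-negative values were nonetheless above the floor of 3 counts. The log2 fold change of FZD2 was 3.08 (standard error 0.247, adjusted p = 4.14e-04), or 8.48-fold with an interval of 5.55 to 13.0, wider than that of FZD1. The 3 receptors made up 74.2% and 73.9% of the family's counts in LGR5-high of pigs 88R and 95R, against 22.4% and 27.7% in LGR5-negative.

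FZD8 and FZD5 are close in sequence, and both were called higher, with values of unlike size. FZD8 had 110 and 119 CPM in LGR5-high and 17.7 and 19.2 CPM in LGR5-negative, and the LGR5-high libraries stood clear of the others. On the log2 scale FZD8 rose by 2.63 (standard error 0.0965, adjusted p = 6.16e-05), or 6.20-fold with an interval of 5.25 to 7.31, and it was 2.63 and 2.62 in pigs 88R and 95R. FZD5, known for its part in the maturation of Paneth cells in the intestine, had 32.1 and 24.7 CPM in LGR5-high and 20.2 and 20.7 CPM in LGR5-negative. Its values did not overlap, but the LGR5-high library of pig 95R was not far above LGR5-negative. The log2 fold change of FZD5 was 0.48 (standard error 0.153, adjusted p = 0.0490), or 1.39-fold with an interval of 1.07 to 1.81. The call of FZD5 was lost in 6 of 11 alternatives, and its adjusted p-value lay between 0.00520, with the pig as a replicate block, and 1.00, with Bonferroni adjustment. It was also lost without the LGR5-high library of pig 88R (log2 fold change 0.27), without the LGR5-negative library of pig 88R (0.45) and without that of pig 95R (0.49), and it held without the LGR5-high library of pig 95R (0.66).

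FZD3 and FZD6 are the receptors of the family best known for planar cell polarity, and in mice FZD6 sets the orientation of hair follicles. FZD3 had 54.4 and 52.9 CPM in LGR5-high and 6.28 and 5.92 CPM in LGR5-negative, with little spread between pigs. The log2 fold change of FZD3 was 3.14 (standard error 0.111, adjusted p = 5.86e-05), or 8.79-fold with an interval of 7.27 to 10.6. FZD6 had 79.3 and 60.7 CPM in LGR5-high and 61.6 CPM in both LGR5-negative libraries. The LGR5-high value of pig 88R was above the others, and that of pig 95R was just below LGR5-negative. The fitted log2 value of FZD6 was 0.18 (standard error 0.138, adjusted p = 0.320), or 1.14-fold with a 95% interval of 0.897 to 1.44. FZD6 was called in none of 11 alternatives, with adjusted p-values between 0.0566 and 1.00. The pigs gave 0.36 (88R) and -0.02 (95R), and the value went to -0.03 without the LGR5-high library of pig 88R.

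FZD4, FZD9 and FZD10 fell. FZD10 had 39.4 and 38.4 CPM in LGR5-high and 81.2 and 81.5 CPM in LGR5-negative, and the pigs gave almost the same values. The fitted log2 value of FZD10 was -1.07 (standard error 0.0817, adjusted p = 3.58e-04), which is 2.09-fold lower in LGR5-high. FZD4, the receptor of Norrin in retinal vessels, had 19.7 and 15.5 CPM in LGR5-high and 53.6 and 42.0 CPM in LGR5-negative. In both populations pig 88R was higher, and the groups did not overlap. The log2 fold change of FZD4 was -1.44 (standard error 0.177, adjusted p = 0.00176) and was -1.44 in each pig, a level 2.72-fold lower in LGR5-high. FZD9, which lies in the region deleted in Williams syndrome in humans, was the scarcest in LGR5-high, with 18 and 32 counts (0.523 and 0.968 CPM) there and 85 and 80 counts (2.98 and 2.65 CPM) in LGR5-negative. For FZD9 the fitted log2 value was -1.91 (standard error 0.377, adjusted p = 0.00979), or 3.76-fold lower, and its interval from -2.84 to -0.98 is the widest of the family. Pigs 88R and 95R gave -2.38 and -1.39. These 3 receptors gave 43.9% and 39.1% of the family's counts in LGR5-negative and 4.59% in each LGR5-high library. Their summed level fell less than their share, from 132 ± 8.17 CPM in LGR5-negative to 57.2 ± 3.38 CPM in LGR5-high (SD, n = 2 pigs), or 2.31-fold.

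**Figure D3:**
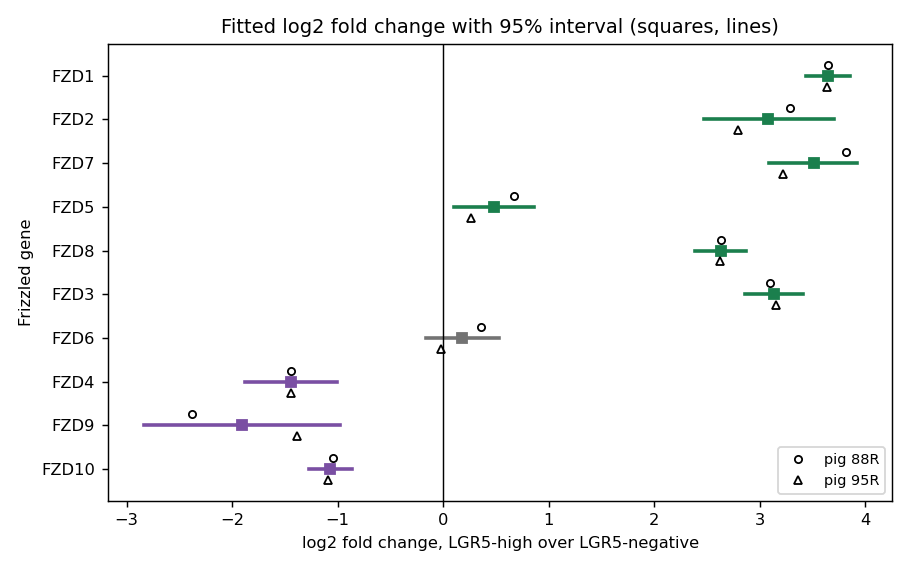
Squares are the fitted log2 fold changes of LGR5-high over LGR5-negative with 95% intervals as lines, green for higher, purple for lower and grey for not called, and open symbols are the values of each pig. FZD1, FZD2, FZD7, FZD8 and FZD3 lie between 2.63 and 3.65, FZD5 and FZD6 near 0, and FZD4, FZD9 and FZD10 between -1.91 and -1.07.

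Markers of other cells moved between the populations too, and their part in the changes of the receptors was not tested. Over all tested genes, 22.7% were higher and 22.0% lower. Falling with FZD4, FZD9 and FZD10, 5 of 7 tested endothelial markers were lower, with a summed level of 7.12 and 7.99 CPM in LGR5-high and 22.0 and 22.7 CPM in LGR5-negative, and CDH5 was at 1 count in each LGR5-high library. Likewise 5 of 7 melanocyte markers were lower (62.5 and 62.6 CPM against 85.0 and 261 CPM) and 5 of 7 leukocyte markers (18.9 and 19.0 CPM against 98.3 and 146 CPM), while AIF1 was higher. CD3E, which was not tested, had 0 counts in LGR5-high and 1 and 2 in LGR5-negative. Rising with FZD1, FZD2, FZD3, FZD7 and FZD8, all 5 tested markers of smooth and skeletal muscle were higher, with 509 and 405 CPM in LGR5-high against 25.5 and 32.3 CPM, most of it TAGLN, while DES had at most 2 counts and ACTA1 had 0 in every library. Of 4 tested Schwann cell markers, NGFR and S100B were higher and SOX10 lower, with summed levels of 58.8 and 78.8 CPM against 5.44 and 10.7 CPM, while CDH19 had 0 counts in every library. The fibroblast list was divided, with COL1A1 and THY1 higher and 5 of its 7 tested genes lower, LUM, PDGFRA and COL3A1 among them. Its summed level was 735 and 915 CPM in LGR5-high and 620 and 347 CPM in LGR5-negative. Some lower markers passed the filter on low counts through LGR5-negative, among them CDH5, KDR, CLDN5, PTPRC, CD207, LUM and PDGFRA. The muscle marker CNN1 passed it through LGR5-high. The counts of called markers include these genes.

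Ratios between receptors within 1 library do not depend on the scaling, and 7 such ratios were taken, without a test. The ratio of FZD1 to FZD7 counts was 0.246 and 0.289 in LGR5-high and 0.276 and 0.215 in LGR5-negative, so that the populations overlapped while both genes rose. FZD2 per FZD7 was 0.0123 and 0.0138 in LGR5-high against 0.0168 and 0.0178. By contrast, FZD8 per FZD5 was 3.44 and 4.81 in LGR5-high and 0.880 and 0.930 in LGR5-negative. FZD3 per FZD6 was 0.686 and 0.872 against 0.102 and 0.0961. Within these 2 pairs of close relatives, 1 member thus gained counts over the other in both pigs. FZD4 per FZD10 was 0.501 and 0.403 in LGR5-high and 0.659 and 0.516 in LGR5-negative, lower in LGR5-high in both pigs, by -0.40 (88R) and -0.35 (95R) as the difference of log2 fold changes. FZD9 per FZD10 was 0.0133 and 0.0252 against 0.0367 and 0.0325. The widest shift among the ratios taken was that of FZD7 per FZD10, with 19.5 and 17.6 in LGR5-high and 0.668 and 0.890 in LGR5-negative.

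**Figure D4:**
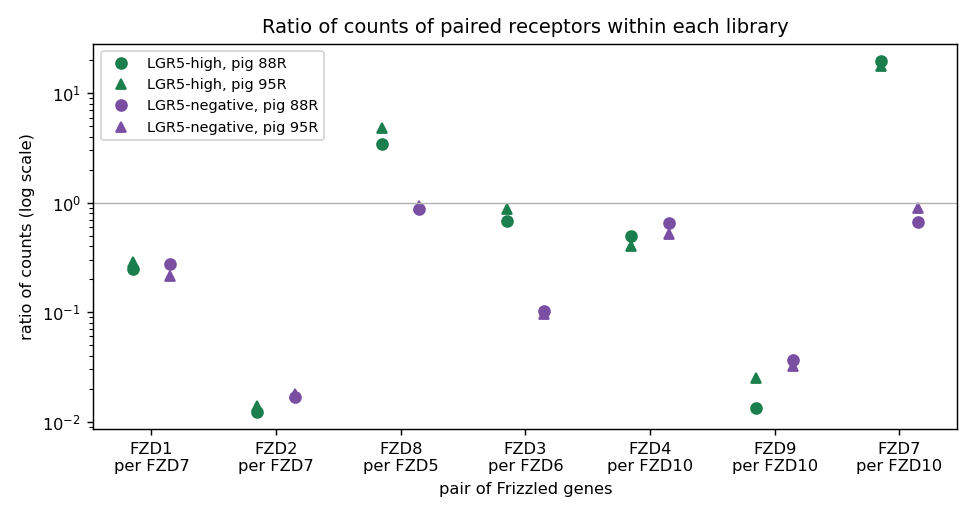
Each point is the ratio of the counts of the named receptors in 1 library, on a log scale, with LGR5-high in green, LGR5-negative in purple, circles for pig 88R and triangles for pig 95R. FZD1 per FZD7 overlaps between the populations, while FZD8 per FZD5, FZD3 per FZD6 and FZD7 per FZD10 are higher in both LGR5-high libraries.

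The direction of each of the 10 log2 fold changes was the same under TMM, DESeq2 size factors, upper quartile scaling and library size only. Library size only moved the median of all tested genes from 0.02 to 0.24, and upper quartile scaling to 0.11. Another scaling shifts all genes by about the same amount, and relative to the median of all genes the values were 3.64 for FZD1, 3.49 for FZD7, 0.46 for FZD5, 0.17 for FZD6 and -1.08 for FZD10. The adjusted p-values over 11 alternatives were up to 0.0340 for FZD1, 0.0356 for FZD3 and 0.0417 for FZD8, which were called in all 11. FZD2, FZD7 and FZD10 were called in 10, and FZD4 and FZD9 in 9. The alternatives that lost them were the test on log2 CPM for FZD7, FZD4 and FZD9, and Bonferroni adjustment for FZD2, FZD10, FZD4 and FZD9. FZD1 ranked 500 and FZD7 ranked 555 by log2 fold change among the 15980 tested genes, so that 3.12% and 3.47% of these genes had a higher value.

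Other genes, listed as acting on or with Frizzled receptors, were taken from 9 lists. Their counts stand beside all tested genes, of which 22.7% were called higher and 22.0% lower. Among the coreceptors, 4 of 6 tested were higher in LGR5-high, namely ROR1, ROR2, PTK7 and LRP6, with a list median of 0.68. DESeq2 and limma-voom also called 4 higher, and the test on log2 CPM called 2. None was lower in any of these, or at an unadjusted edgeR p-value under 0.05. ROR2, a receptor tyrosine kinase that binds WNT5A, had 456 and 502 counts in LGR5-high and 28 and 39 in LGR5-negative, and a log2 fold change of 3.64 (standard error 0.222, adjusted p = 1.85e-04). Its relative ROR1 had 92 and 138 against 7 and 8 counts, with 3.72 (standard error 0.401). ROR1 passed the filter on low counts through LGR5-high, and the 4 of 6 and the median include it. Of the beta-catenin coreceptors, LRP6 had a log2 fold change of 0.47 (adjusted p = 0.0100), and LRP5, at 0.19 (adjusted p = 0.0807), was not called. PTK7, LRP6, LRP5 and RYK were named after their values were seen. RYK, with 0.08 (adjusted p = 0.554), was not called, and MUSK was under the floor in every library.

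Of 8 tested proteins that carry a Frizzled-like cysteine-rich domain, 2 were higher and 2 lower (median -0.35). These counts are near the shares of all tested genes, 22.7% higher and 22.0% lower. SFRP1, a secreted protein that binds WNT ligands, had 41823 and 36129 counts in LGR5-high and 2480 and 3261 in LGR5-negative, with a log2 fold change of 3.57 (standard error 0.140, adjusted p = 6.62e-05). Its relative SFRP5 went the other way, with 43 and 63 against 304 and 240 counts and a log2 fold change of -2.56 (adjusted p = 0.00143). SMO, the Hedgehog signal transducer and a relative of the Frizzled family, had a log2 fold change of 2.15 (adjusted p = 6.71e-05), and COL18A1 one of -0.72 (adjusted p = 0.00712).

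In the arm that controls Frizzled turnover, 5 of 6 tested genes were higher (median 2.25) and 0 lower in edgeR, DESeq2 and limma-voom, with 0 lower at an unadjusted edgeR p-value under 0.05 as well. The test on log2 CPM called 0 higher and 0 lower. Among all tested genes, edgeR called 22.7% higher and 22.0% lower. The higher genes of this arm were LGR5, LGR6, LGR4, ZNRF3 and RSPO1. LGR5 is the gene of the sort reporter, so its log2 fold change of 6.03 (standard error 0.433, adjusted p = 2.90e-04) follows from the sort. The 5 of 6 and the median include it. Of the ubiquitin ligases, both named after their values were seen, ZNRF3 had 1728 and 1514 counts in LGR5-high and 853 and 851 in LGR5-negative, with a log2 fold change of 0.73 (adjusted p = 0.00291). RNF43 had 1892 and 1841 against 1797 and 1706 counts and was not called (log2 fold change -0.11, adjusted p = 0.380). The ligand RSPO1 had 14 and 51 counts in LGR5-high and 4 and 0 in LGR5-negative, the latter near or under the floor. It passed the filter on low counts through LGR5-high. Its pigs were unlike, with log2 fold changes of 1.21 and 4.66. RSPO2 was under the floor in every library.

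Of 13 tested genes listed under Frizzled retention and receptor partners, 6 were higher and 2 lower (median 0.49), beside 22.7% and 22.0% of all tested genes. The list took SHISA genes by family name, and whether each of them acts on Frizzled was not checked. GPC6, a glypican, had 506 and 510 counts in LGR5-high and 26 and 42 in LGR5-negative, with a log2 fold change of 3.70 (standard error 0.242, adjusted p = 2.22e-04). SHISA2, which belongs to a family known to hold Frizzled in the endoplasmic reticulum, had a log2 fold change of 1.98 (adjusted p = 1.90e-04). GPC3 was lower with -1.07 (adjusted p = 0.0119) and SHISA5 with -0.98 (adjusted p = 0.00317). NDP, the gene of Norrin, had between 13 and 26 counts in each library, and TSPAN12, which assists FZD4, between 17 and 36, and neither was called (adjusted p = 0.334 and 0.712). Both were named after their values were seen. SHISA6 was under the floor in every library.

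Inside the cell, 3 of 20 tested genes of the Dishevelled and destruction complex list were higher and 6 lower (median 0.07). Over all tested genes, 22.7% were higher and 22.0% lower. CTNNB1, which encodes beta-catenin, had 38378 and 37574 counts in LGR5-high and 15340 and 16685 in LGR5-negative, with a log2 fold change of 1.05 (standard error 0.0794, adjusted p = 3.46e-04). DACT2 and NKD2, both known to bind Dishevelled, had log2 fold changes of 2.28 (adjusted p = 2.87e-04) and 2.27 (adjusted p = 6.32e-05). The lower genes changed little, with -0.45 for CSNK1A1 (adjusted p = 0.0104) and -0.41 for AXIN2 (adjusted p = 0.0226), a target of the pathway itself. With library size only, 7 genes of this list were higher and 0 lower, so that the calls of the 6 lower genes rest on the scaling. With the pig as a replicate block, 5 were higher and 6 lower.

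Among 14 tested planar cell polarity genes 5 were higher and 3 lower (median 0.31), beside 22.7% and 22.0% of all tested genes. The higher genes were PRICKLE2, CELSR2, VANGL2, PRICKLE1 and INTU. PRICKLE2 had 3604 and 3288 counts in LGR5-high and 225 and 453 in LGR5-negative (log2 fold change 3.16, standard error 0.287, adjusted p = 6.24e-04). CELSR2, an atypical cadherin of this system, had a log2 fold change of 2.72 (adjusted p = 6.16e-05). VANGL2 had 2.69 (adjusted p = 2.87e-04) and its relative VANGL1 0.12 (adjusted p = 0.374), and the difference between them was not tested. ANKRD6 was lower with -1.10 (adjusted p = 0.0222) and DAAM1, a formin downstream of Dishevelled, with -0.52 (adjusted p = 0.00427).

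The WNT ligands were divided, with more lower than higher genes. Of 14 tested WNT genes 4 were higher and 8 lower (median -1.23), beside 22.7% and 22.0% of all tested genes. WNT3 had 750 and 640 counts in LGR5-high and 7868 and 7648 in LGR5-negative (log2 fold change -3.68, standard error 0.106, adjusted p = 4.09e-05), and WNT16 had 706 and 780 against 6054 and 7681 (-3.40, standard error 0.132, adjusted p = 6.62e-05). WNT11 had 2462 and 3388 counts in LGR5-high and 26 and 31 in LGR5-negative (6.48, standard error 0.253, adjusted p = 6.62e-05), and WNT5A, a ligand of ROR2, had a log2 fold change of 1.89 (adjusted p = 0.00103). WNT1, WNT2 and WNT8A were at or under the floor in every library. Of 9 tested secreted inhibitors and their receptors 7 were higher and 1 lower (median 2.50). Of the 7, WIF1, DKK4 (45 and 85 against 4 and 4 counts) and SOST (40 and 27 against 9 and 11) passed the filter on low counts through LGR5-high. The 7 of 9 and the median include them. DKK3 had 4877 and 5192 counts in LGR5-high and 59 and 80 in LGR5-negative (5.98, standard error 0.148, adjusted p = 3.91e-05), WIF1 had 194 and 266 against 2 and 7, and KREMEN1 was the lower gene with -0.62 (adjusted p = 0.00263), and with the pig as a replicate block 2 were lower. All 4 TCF/LEF factors were higher (median 2.76) in edgeR, DESeq2 and limma-voom, and 1 in the test on log2 CPM. None was lower in any of these, or at an unadjusted edgeR p-value under 0.05. TCF7L1 had 2500 and 2728 counts against 340 and 315 (2.80, standard error 0.125, adjusted p = 8.37e-05) and TCF7 a log2 fold change of 2.78 (adjusted p = 4.14e-04).

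**Figure D5:**
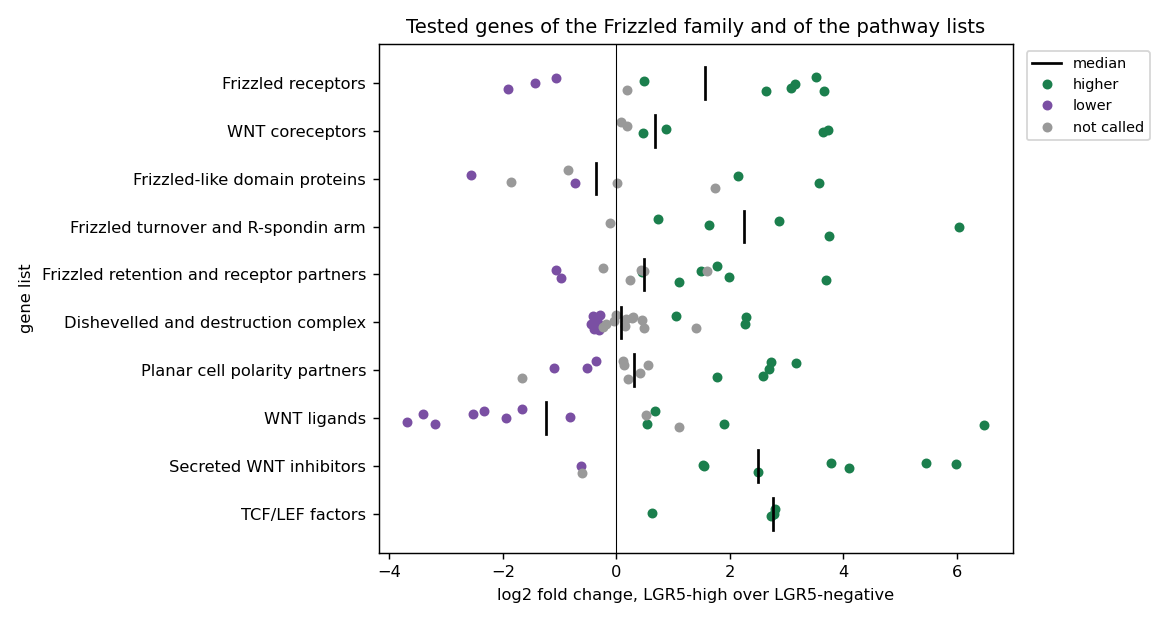
Each point is the log2 fold change of 1 tested gene, by list, green for called higher, purple for called lower and grey for not called, and black lines are medians. The medians run from -1.23 for the WNT ligands to 2.76 for the TCF/LEF factors, with 1.55 for the Frizzled receptors.

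For each receptor, the pathway gene with the most similar pattern was the one with the smallest Euclidean distance between mean-centred log2 CPM values over the 4 libraries, out of 94 candidates. SFRP1 was nearest to FZD7 (distance 0.0953) and to FZD1 (0.242). TCF7L2 was nearest to FZD2 (0.300), TCF7L1 to FZD3 (0.377) and PRICKLE1 to FZD8 (0.204). For the members with little change these were LRP6 for FZD5 (0.164) and VANGL1 for FZD6 (0.141). WNT5B was nearest to FZD4 (0.460) and FZD9 (0.492), and SHISA5 to FZD10 (0.272). With 4 libraries in 2 populations, these distances mostly reflect the size of the fold change. Within the family, FZD1 and FZD7 were each other's nearest member (0.329), as were FZD2 and FZD3 (0.403), FZD5 and FZD6 (0.294) and FZD4 and FZD10 (0.502).

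By RefSeq (assembly Sscrofa11.1, consulted for names and neighbours) 3 members overlap another gene, and the strand setting of the counting is not given in the sources used here. FZD1 overlaps MTERF1, which had 312 and 372 counts in LGR5-high and 122 and 210 in LGR5-negative, fewer than FZD1 in each library. Like FZD1, MTERF1 was higher in LGR5-high, with a log2 fold change of 0.85 (adjusted p = 0.0479). FZD9 overlaps BAZ1B, which had between 2111 and 2808 counts and a log2 fold change of -0.00 (adjusted p = 0.978), against at most 85 for FZD9. FZD8 overlaps LOC110255709, which had at most 33 counts. Like FZD8, LOC110255709 was higher in LGR5-high, with a log2 fold change of 2.12 (adjusted p = 0.00873). Whether reads of the overlapping genes were mixed was not tested. How reads shared between similar members, such as FZD1, FZD2 and FZD7, were assigned is not given in the sources used here either, and their separate values are uncertain to that extent.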

How the data were processed

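Poly(A) RNA of LGR5-high and LGR5-negative cells from 2 pigs was sequenced by the authors as paired-end reads, with 4 libraries in all. The file the authors deposited holds raw read counts for each gene symbol, not normalized. The submitters' processing notes name Trimmomatic 0.36, STAR 2.5.2b, featureCounts and Subread 1.5.2. The genome build, the annotation and the strand setting are not given in the sources used here. The 1 entry without a name (0.360% to 0.626% of counts) was left out.

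The main tool was edgeR 4.0.16, run in R 4.3.3. Its filterByExpr chose the genes (minimum count 10, minimum total 15), TMM set the library scaling, and the populations were compared by quasi-likelihood with no other term, 2-sided, with Benjamini-Hochberg adjustment over 15980 genes and a threshold of 0.05. Standard errors are the log2 fold change divided by the root of the F statistic, and intervals use 95%. Values per pig used a prior count of 2, and the fits one of 0.125. Each population had 1 library per pig, so the spread within a population is that between 2 pigs. The edgeR p-values also draw on the spread of other genes, whereas the test on log2 CPM uses only that of the gene itself. Libraries of the same pig deviated together from the population means (correlation 0.370), and the animal pairs them. The replicate block was an alternative, as were other scalings and filters, DESeq2 1.42.0 with and without the block, limma-voom (limma 3.58.1), a per-gene test on log2(CPM + 1) of the kind the study's methods name (Student's), Bonferroni adjustment and leaving out each library.

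The members, lists and tests were chosen with earlier results of these data known. Named genes are the 10 receptors, LGR5, up to 2 higher and 2 lower called genes of each list with the largest change, the nearest pathway genes, markers where needed, and members of small counts, named after their values were seen. CTNNB1, VANGL2, INTU, LGR4, LGR6, DKK4 and SOST were named outside this rule, with their values known. CSNK1E, CELSR1 and KRT14 of the lists were not analysed here. A marker of the lists is not reported here. Levels per transcript length and sequences were not used here.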

Additional observations from a re-analysis of the deposited data

How the results depend on the processing

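Of the receptors' log2 fold changes under alternatives, 133 kept their direction and their side of the threshold, 16 lost the call and 1 reversed, that of FZD6, which ranged from -0.03 without the LGR5-high library of pig 88R to 0.37 without that of pig 95R. The cause of the following moves was not tested. Library size only gave 5473 higher and 2328 lower genes against 3632 and 3508, and a log2 ratio of 2.19 for the summed Frizzled level against 1.97. The test on log2 CPM called 544 and 502 genes, with 4 higher and 1 lower receptor, and Bonferroni adjustment of the edgeR p-values 194 and 130 genes, with 4 higher and 0 lower receptors, against 3 lower at an unadjusted p-value under 0.05 and 3 in DESeq2. Leaving out each library gave between 2279 and 3169 higher and between 2139 and 3004 lower genes, the fewest without the LGR5-high library of pig 95R, and 2340 higher without that of pig 88R. It gave 5 to 6 higher and 3 lower receptors, and a summed log2 ratio of 1.91 to 2.03. A replicate block for the pig called 4562 higher and 4342 lower genes, and 6 and 3 receptors. In edgeR the block changed no call of a receptor, whereas in DESeq2 it lost FZD5 (adjusted p = 0.0439 without and 0.0598 with it). In the lists of pathway genes it took the higher genes from 3 to 5 (Dishevelled), 4 to 6 (WNT ligands), 2 to 3 (Frizzled-like) and 6 to 7 (retention), and the lower genes from 1 to 2 (inhibitors), 2 to 3 (Frizzled-like) and 3 to 4 (planar polarity). Shares per transcript length could not be computed, as no transcript lengths were used here.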
